A study of Mus musculus with 6 samples.

Results

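The cells described here are those that the deposited metadata label Neurons, in a single-cell RNA sequencing study of the mouse retina during oxygen-induced retinopathy (OIR). They were chosen by that label alone, without use of any level, and number 690 of 8944 cells (7.71%). The study compared eNOS+/+ mice (C57BL/6J) with eNOS-/- mice, which are homozygous for a knockout allele of Nos3 (the gene of endothelial nitric oxide synthase) backcrossed to C57BL/6J, with 3 replicates per genotype and 3 to 5 retinas pooled in each replicate. All pups of both genotypes, with fostering CD1 mothers, were kept in 75% oxygen from postnatal day (P) 7 to P12, which arrests the growth of retinal vessels, and were collected at P14 in room air. Before droplet capture by Drop-seq the suspension was enriched with beads carrying an antibody to CD31, the endothelial surface protein encoded by Pecam1, so the neurons are what remained beside the endothelial cells (ECs) and their number is no measure of the neurons in the eye. Because retinas were pooled, a replicate is a pool and not an animal.

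Retinal interneurons stand between photoreceptors and the ganglion cells that send the axons of the optic nerve. Bipolar cells receive glutamate from rods and cones. Rod bipolar and ON cone bipolar cells sense its fall in light through the metabotropic receptor mGluR6 (Grm6), a Go protein and the cation channel Trpm1, whereas OFF bipolar cells use ionotropic glutamate receptors. Amacrine cells modulate bipolar output with GABA or glycine, which are made by Gad1 and Gad2 or taken up by Slc6a9, and horizontal cells give feedback to photoreceptors. In OIR the inner retina, where these cells lie, loses part of its blood supply, and neurons there are known to take part in guiding vessels.

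Bipolar genes carry the results below, and Otx2 and Crx, homeodomain proteins of photoreceptors and bipolar cells, recognise the core TAATCC. RefSeq promoters (build GRCm38.p6, 250 bases before to 50 after a start) were therefore searched for TAATCC on both strands, GGATTA being the same core on the other strand. Of the 22 genes of the bipolar list, 18 had a promoter in the table, and 6 of these (33.3%) held the core in at least 1 window, against 2199 of 27025 genes of all promoters (8.14%), 4 of 19 amacrine genes, 3 of 9 rod genes, and none of 6 ganglion or 5 horizontal genes. These are small counts of matches, not of binding sites, and a gene with several starts had more windows in which to match. The windows of the 4 genes with the highest level in Neurons among the 6 are shown on the gene's strand, 5′ to 3′, with the core in capitals. They are Trpm1 (chr7:64153585-64153884), Isl1 (chr13:116309639-116309938, minus strand), Lrtm1 (chr14:29017958-29018257) and Cabp5 (chr7:13397905-13398204), and Cabp5 held 2 matches.
Trpm1: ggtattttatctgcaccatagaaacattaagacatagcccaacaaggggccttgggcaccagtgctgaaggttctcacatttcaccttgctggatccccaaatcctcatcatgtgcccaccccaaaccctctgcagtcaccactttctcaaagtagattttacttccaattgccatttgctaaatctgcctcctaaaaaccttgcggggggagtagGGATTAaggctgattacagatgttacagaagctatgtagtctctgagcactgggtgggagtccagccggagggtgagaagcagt
Isl1: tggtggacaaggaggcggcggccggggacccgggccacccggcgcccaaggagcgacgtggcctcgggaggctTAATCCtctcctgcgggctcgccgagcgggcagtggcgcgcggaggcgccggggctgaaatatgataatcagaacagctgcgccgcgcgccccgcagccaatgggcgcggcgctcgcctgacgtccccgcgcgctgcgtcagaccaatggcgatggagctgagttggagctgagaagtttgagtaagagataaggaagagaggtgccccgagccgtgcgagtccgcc
Lrtm1: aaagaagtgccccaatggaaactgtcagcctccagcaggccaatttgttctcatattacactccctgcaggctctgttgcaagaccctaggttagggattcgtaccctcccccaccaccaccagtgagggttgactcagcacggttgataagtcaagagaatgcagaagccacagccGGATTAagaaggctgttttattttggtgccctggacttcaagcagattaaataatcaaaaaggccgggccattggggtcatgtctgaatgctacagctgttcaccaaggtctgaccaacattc
Cabp5: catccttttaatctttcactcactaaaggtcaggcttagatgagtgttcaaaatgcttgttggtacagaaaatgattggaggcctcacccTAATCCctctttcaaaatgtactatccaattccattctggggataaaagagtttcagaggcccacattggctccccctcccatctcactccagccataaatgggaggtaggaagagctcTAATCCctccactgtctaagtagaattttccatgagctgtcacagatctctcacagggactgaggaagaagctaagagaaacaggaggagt

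The 6 replicates differed widely in how many Neurons they gave. The eNOS+/+ replicates 1, 2 and 3 held 59, 11 and 100 Neurons, and the eNOS-/- replicates 1, 2 and 3 held 97, 413 and 10. Replicate 2 of eNOS-/- alone therefore gave most of the cells, while eNOS+/+ replicate 2 and eNOS-/- replicate 3 are too small to carry the level of a single gene. Summed over Neurons, the counts of unique molecular identifiers (UMIs, 1 per captured transcript) were 50642, 5178 and 50544 in eNOS+/+ and 88036, 361911 and 5975 in eNOS-/-. Levels are given as counts per 1000000 UMIs of such a sum (CPM), and since each transcript is counted once at its 3′ end they need no correction for length. A count of 3 UMIs, the limit that a count of 0 allows, corresponded to 579 and 502 CPM in the 2 small sums and to 8.29 to 59.4 CPM in the other 4, so a 0 in a small sum says little. No Neuron shared its barcode with a cell of another replicate, but 258 Neurons belonged to groups of cells of the same replicate whose barcodes differ only in the last base, and 515 Neurons were left when 1 cell per group was kept. In the metadata the 613 cells of eNOS+/+ replicate 2 carry the first library name of eNOS+/+ replicate 1 in another column, and the replicate column was followed here. All cells were marked as singlets in the metadata, and no doublet caller was run again.

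**Figure D1:**
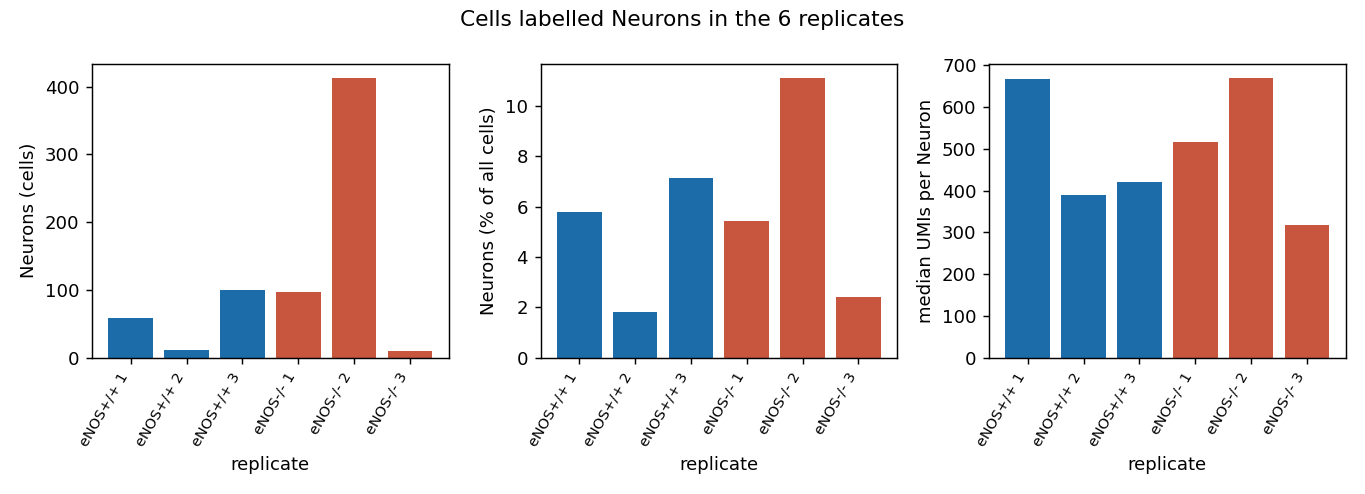
Bars give, for each replicate, the number of Neurons, their share of all cells of the replicate in percent, and the median UMIs per Neuron, with eNOS+/+ in blue and eNOS-/- in red. The 2 genotypes overlap in all 3 panels, and replicate 2 of eNOS-/- stands above the others in number (413 cells) and share (11.1%).

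As a share of all cells, Neurons made up 5.79%, 1.79% and 7.15% in eNOS+/+ and 5.43%, 11.1% and 2.41% in eNOS-/-. Their Wilson 95% intervals, which cover counting error only, ran from 1.00 to 3.18% in the lowest replicate and from 10.2 to 12.2% in the highest. The share was thus not separated by genotype: the mean difference (eNOS-/- minus eNOS+/+) was 1.41 percentage points, with a two-sided exact permutation p of 0.7, where 3 against 3 allows no p below 0.1. Measured against non-endothelial cells, which takes the enrichment out of the denominator, the shares were 11.3%, 13.3% and 32.6% in eNOS+/+ and 18.0%, 28.6% and 7.87% in eNOS-/-, and the difference turned to -0.889. Per Neuron or rod counted, Neurons were 13.2%, 61.1% and 64.1% in eNOS+/+ and 25.8%, 35.5% and 27.8% in eNOS-/-. The median Neuron held 667, 390 and 421.5 UMIs in eNOS+/+ and 515, 670 and 318.5 in eNOS-/- (mean difference 8.33 UMIs, two-sided exact permutation p = 0.9). Over all replicates the median was 579 UMIs in Neurons, 361 in Rods and 682 in ECs.

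By their genes, most of the labelled cells carried bipolar markers, and the amacrine and ganglion genes came from a small part of them. The channel gene Trpm1 (chr7:64153835-64269775) reached 5332, 2318 and 5421 CPM in the eNOS+/+ sums and 8281, 6129 and 4351 CPM in the eNOS-/- sums. The means were 4357 ± 1767 CPM (SD, n = 3) and 6254 ± 1968 CPM (SD, n = 3), and the genotypes overlapped. All 6 sums lay far above the pooled level of Rods (166 CPM), Cones (18.5 CPM) and Neuroglia (110 CPM). Trpm1 was counted in 61.0% of Neurons and in 5.17% of Rods, and in 66.8% and 4.99% once each cell had been drawn down to 500 UMIs (392 Neurons and 421 Rods kept, 298 and 1087 shallower cells left out). Pcp2, a modulator of Go signalling that marks rod bipolar cells among others, stood at 2073, 966 and 1484 CPM in eNOS+/+ and at 1249, 1144 and 2510 CPM in eNOS-/-, and only 3 UMIs of it were counted in all Rods and none in Cones or Neuroglia. The 2 amacrine markers of the same set were nearly absent. Gad1, which makes GABA, gave 7 UMIs in 4 cells, all from eNOS-/- replicate 2, and the glycine transporter gene Slc6a9 gave 6 UMIs, of which 2 came from eNOS-/- replicate 1 and 4 from replicate 2. The data thus go against reading the label as an even mixture of interneurons, and the cells are called Neurons here only because the metadata do so.

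The marker lists gave the same picture for whole groups of genes. Of 21 bipolar genes found in the table, all 21 had UMIs in Neurons, and together they made up 22629, 12360 and 22832 CPM in eNOS+/+ and 26069, 20301 and 19582 CPM in eNOS-/-, against 1242 CPM in Rods, 1072 CPM in Cones and 638 CPM in Neuroglia. At least 2 different bipolar genes were counted in 80.0% of Neurons (552 cells), in 5.24% of Rods and in 6.52% of Neuroglia, and in 81.1%, 6.41% and 2.04% at 500 UMIs. The rod list, by contrast, summed to 1665 CPM in Neurons and 88065 CPM in Rods. The glial list stood at 603 CPM in Neurons against 33418 CPM in Neuroglia. Immune genes came to 11 UMIs in all. The lowest bipolar sum was that of the small eNOS+/+ replicate 2, where amacrine and ganglion genes were highest. Cell types had been assigned from these same UMIs, so none of these contrasts was tested.

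**Figure D2:**
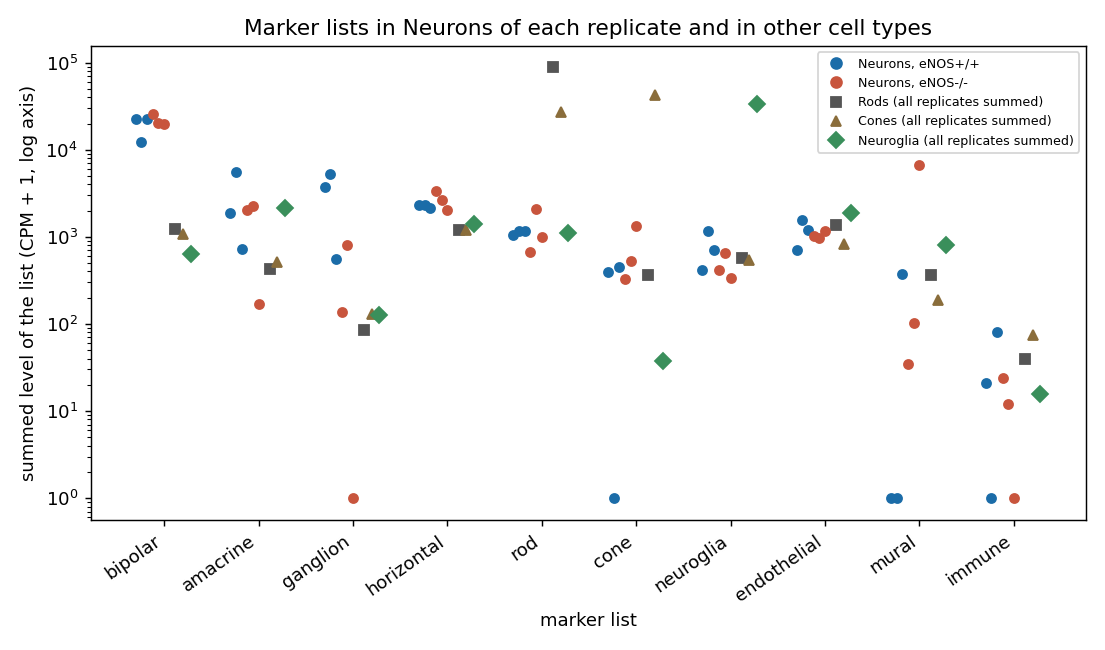
Each column is 1 marker list, and the logarithmic axis gives the summed level of its genes as CPM + 1. Circles are the 6 sums of Neurons (blue eNOS+/+, red eNOS-/-), and the other symbols are Rods, Cones and Neuroglia with all replicates summed. The bipolar list separates Neurons from the other types, whereas the amacrine list lies at a like level in Neurons (2079 CPM) and Neuroglia (2134 CPM).

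Amacrine genes were carried by fewer cells. At least 2 of them were counted in 14.3% of Neurons (99 cells), in 1.06% of Rods and in 25.0% of Neuroglia, where Pax6 and Dab1 are also expressed (946 and 352 CPM). The share in Neurons was 13.3% at 500 UMIs. The non-coding RNA Snhg11 led the list, at 178, 4635 and 99 CPM in eNOS+/+ and 738, 895 and 0 CPM in eNOS-/-, and the high value rests on 24 UMIs. The vesicular GABA and glycine transporter gene Slc32a1 gave 26 UMIs, all in eNOS-/- replicate 2. The transcription factor gene Tfap2b gave 101 UMIs, of which 2 came from eNOS+/+. Of amacrine and bipolar UMIs together, the amacrine list held 7.73%, 31.2% and 3.11% in eNOS+/+ and 7.27%, 10.1% and 0.847% in eNOS-/- (two-sided exact permutation p = 0.6), and 31.2% is again the sum of 11 cells. Without the 2 small sums the difference between genotypes turned from -7.93 to 3.27 percentage points.

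Ganglion genes were rarer still: 4.64% of Neurons (32 cells) had 2 of them, against 0.0663% of Rods. The neurofilament gene Nefl stood at 1343, 2704 and 138 CPM in eNOS+/+ and at 11.4, 166 and 0 CPM in eNOS-/-, and Nefm, its partner in the filament, at 790, 1159 and 79.1 CPM and at 45.4, 88.4 and 0 CPM. Only 21 cells held a Nefl UMI. The UMIs numbered 68, 14 and 7 in eNOS+/+ and 1, 60 and 0 in eNOS-/-, so the levels overlapped and each rested on a handful of cells. Neither gene passed the filter for the genotype test. Both were called lower in eNOS-/- when eNOS+/+ replicate 3 (3 genes of 1214 called lower, 0.247%) or eNOS-/- replicate 2 (2 of 1193, 0.168%) was left out, and fewer ganglion cells and less RNA per ganglion cell cannot be told apart in a sum.

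Of the horizontal list, Prox1, Calb1 and Tpm3 are not particular to horizontal cells, and Prox1 was highest in cluster 7 (1393 CPM) of the clusters described next. The transcription factor gene Lhx1, which is, gave UMIs in cluster 21 alone (195 CPM). In all, 48 Neurons had 2 genes of both the bipolar and the amacrine list, and 68 Neurons had 2 genes of none of the 4 lists.

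The authors' integrated clustering splits the label into 3 clusters, numbered 7, 16 and 21 in the metadata, and they differ in genes of known bipolar classes. Since clusters were formed from the same UMIs, their levels are a description. Cluster 7 (352 cells, 51.0% of Neurons, median 703 UMIs) was led by Prkca, the kinase that marks rod bipolar cells, at 1443 CPM against 6.75 and 32.4 CPM in clusters 16 and 21, and by Pcp2 (2208 CPM), Car8 (1517 CPM) and Sebox (737 CPM). It is called bipolar-like from these 4 markers, and 98.6% of its cells had 2 bipolar genes. Trpm1 stood at 10261 CPM there. Cluster 7 took 62.7%, 45.5% and 69.0% of the Neurons in eNOS+/+ and 50.5%, 44.8% and 70.0% in eNOS-/-.

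Cluster 16 (232 cells, 33.6%, median 438.5 UMIs) carried genes of cone bipolar cells. Scgn, a calcium sensor of cone bipolar cells, reached 783 CPM against 18.7 CPM in cluster 7. Vsx1, a transcription factor of cone bipolar cells, reached 236 CPM and gave no UMI in cluster 7. The kainate receptor gene Grik1, which OFF bipolar cells use, stood at 472 CPM against 74.6 CPM, and its accessory gene Neto1 at 67.5 CPM against 0. The AMPA receptor gene Gria2 stood at 918 CPM against 34.2 CPM in cluster 7. In cluster 21 Gria2 reached 897 CPM, so it does not set cluster 16 apart from that cluster. Genes of the ON pathway were not absent: Trpm1 was at 1498 CPM, Grm6 at 391 CPM and Isl1 at 1471 CPM. In cluster 16 76.7% of cells had 2 bipolar genes. It is kept under its number, because 4 of its 10 leading genes by fold were hemoglobin genes. These came from 1 cell of eNOS-/- replicate 2, which held 986 of the 1042 hemoglobin UMIs of all Neurons within its own 1912 UMIs.

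Cluster 21 (106 cells, 15.4%) held most of the non-bipolar signal, with 499 of 548 UMIs of the ganglion list (91.1%) and 790 of 1169 of the amacrine list (67.6%). Its leading genes were Atp1b1 (1524 CPM, a subunit of the sodium pump), Snhg11 (4325 CPM), Nefm (919 CPM), Nefl (1589 CPM) and Tfap2b (1060 CPM), followed by Stmn2 and Calb2. Markers of amacrine and ganglion cells were thus mixed, and it stays without a name. At least 2 amacrine genes were counted in 60 of its cells, 2 ganglion genes in 31 and 2 bipolar genes in 27. Slc32a1 stood at 281 CPM, Gad1 at 75.7 CPM and Slc6a9 at 64.9 CPM, and the last 2 gave no UMI in clusters 7 and 16. Cabp5, a calcium-binding protein gene of bipolar cells, gave no UMI in cluster 21. By replicate it held 13, 2 and 7 cells in eNOS+/+ and 19, 63 and 2 in eNOS-/-.

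**Figure D3:**
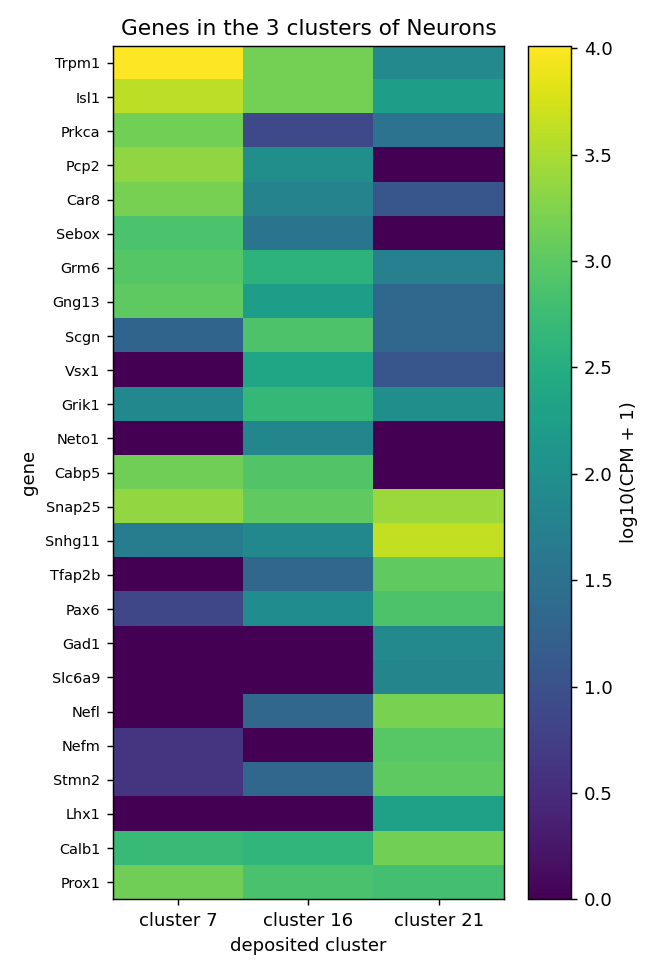
Rows are genes and columns the 3 deposited clusters that make up the Neurons, with colour giving log10(CPM + 1) over all replicates. Cluster 7 is high in Prkca, Pcp2, Car8 and Sebox, cluster 16 in Scgn, Vsx1 and Grik1, and cluster 21 in Snhg11, Tfap2b, Nefl and Lhx1.

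Clustering the 690 Neurons alone gave 5 groups. The smallest, 18 cells that all lie in cluster 21, was horizontal-like: it was led by Lhx1os (1079 CPM) and Lhx1 (810 CPM), with Ndrg1 (2924 CPM), and every cell had 2 horizontal genes. It came from 1, 1 and 0 cells of the eNOS+/+ replicates and from 4, 12 and 0 cells of the eNOS-/- replicates. In 88.9% of these cells 2 amacrine genes were also counted, and in 50% 2 ganglion genes. The amacrine list stood at 14528 CPM there, of which Snhg11 gave 10345 CPM, and the horizontal list at 18486 CPM. A group of 193 cells was led by Scgn (1118 CPM), Cdh8 and Vsx1, and a group of 176 cells with a median of 1237 UMIs by Slco5a1, Gm534 and Car8 (1575 CPM), of which 173 lie in cluster 7. A group of 174 cells, 152 of them in cluster 7, was led by Olfr1109, Rgs5 and Igfbp7, and the remaining 129 cells by hemoglobin genes, Nefl and Calb2. The Olfr1109 lead (208 UMIs) rests mostly on 1 cell with 197 UMIs, and Rgs5 led with only 43 UMIs. The hemoglobin lead rests on the 1 cell described above, so these genes are no traits of the groups. Both groups stay unnamed, although 93.7% of the 174 cells had 2 bipolar genes.

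The ON cascade of bipolar cells was seen nearly whole: 11 of its 12 members had UMIs in Neurons, and only Lrit3 had none. The list summed to 11769, 5214 and 12979 CPM in eNOS+/+ and to 15232, 11202 and 8536 CPM in eNOS-/-. The receptor gene Grm6 stood at 691, 0 and 969 CPM in eNOS+/+ and 784, 536 and 0 CPM in eNOS-/-, with both zeros in the small sums. Gnao1, the alpha subunit of Go, was higher, at 2389, 1159 and 3007 CPM and at 2476, 1412 and 1339 CPM. Of its partners, Gnb3 was at 747 CPM and Gng13 at 646 CPM over all Neurons, whereas Cones held 2015 CPM of Gnb3, a subunit that cones share. Gpr179, which anchors the regulators that end the signal, stood at 1001 CPM, and the regulators Rgs11 and Rgs7 at 242 and 153 CPM. Nyx, whose product holds Trpm1 in place, was low (44.5 CPM). Isl1, the transcription factor gene of ON bipolar and other inner retinal cells, stood at 3140, 2897 and 2691 CPM in eNOS+/+ and at 3169, 2655 and 2176 CPM in eNOS-/-. Otx2 ranged from 889 to 1108 CPM over the 6 sums.

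**Figure D4:**
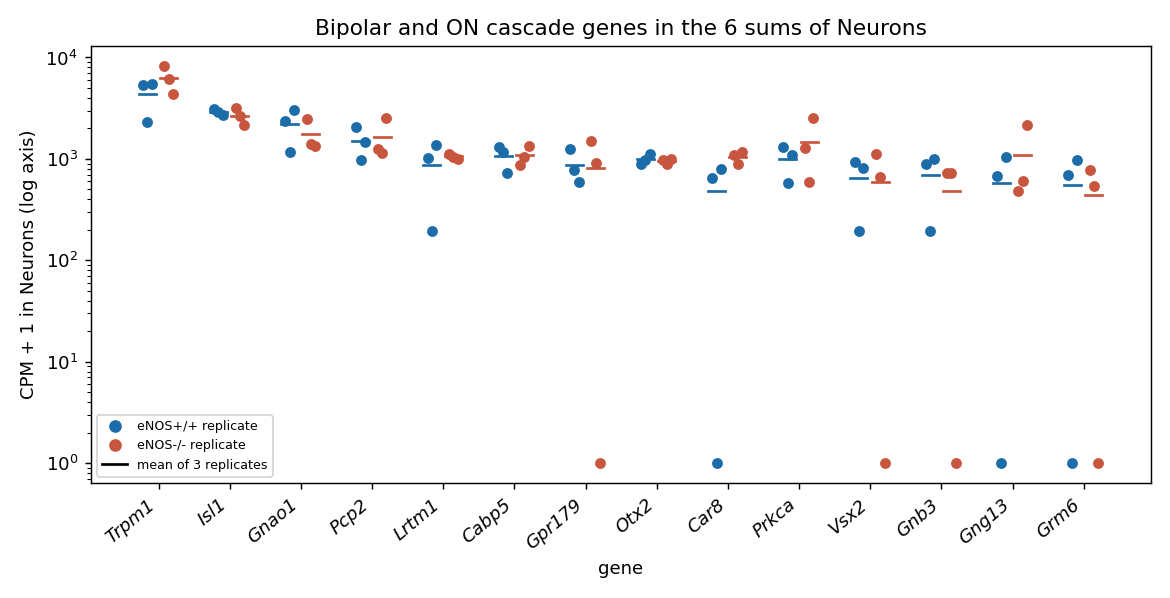
Points are the 6 sums of Neurons for genes of the bipolar list and the ON cascade, on a logarithmic axis of CPM + 1 (blue eNOS+/+, red eNOS-/-), and lines are means of 3 replicates. Points at the foot of the plot are counts of 0, and all of them belong to the 2 sums with 5178 and 5975 UMIs. The genotypes overlap for every gene drawn except Car8, and none was called. Of all 982 genes tested, the eNOS-/- sums were all higher in 5.5% and all lower in 5.3%.

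The 10 genes that most set Neurons apart from Rods, Cones and Neuroglia by the ratio of replicate means included Pcp2, Gng13, Nefm, Nrn1l and Bhlhe23, a bipolar and amacrine transcription factor gene. Rit2, a small GTPase gene of neurons, gave 124 UMIs in Neurons and none in those 3 types, and Amigo2 gave 41 and none. The remaining 3 (Glipr2, Aspn and Col3a1) were each counted in a single cell, of eNOS-/- replicate 3, and describe no group.

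Receptors for the transmitters of amacrine cells were present where the amacrine cells themselves were few. All 14 receptor genes of the GABA and glycine list had UMIs, and together they stood at 1681 CPM. Gabrr1, a subunit gene of the GABA receptors of bipolar terminals, was at 434, 0 and 336 CPM in eNOS+/+ and at 295, 224 and 0 CPM in eNOS-/-. Over all Neurons it was at 260 CPM against 6.09 CPM in Rods, and the cluster levels were 379 CPM in cluster 7, 162 CPM in cluster 16 and 0 in cluster 21. Synthesis and transport genes of GABA and glycine came to 333 CPM. Release genes summed to 7334 CPM in Neurons, near the 7506 CPM of Cones and above the 5555 CPM of Rods. Snap25, the membrane fusion protein gene, and Syt1, the calcium sensor gene of release, stood at 1995 and 1478 CPM. Cplx3, the complexin of ribbon synapses, was at 1108 CPM in Neurons, 943 CPM in Cones and 104 CPM in Rods.

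Hypoxia targets and vessel ligands bear on OIR. The 20 hypoxia genes summed to 8629, 6952 and 8369 CPM in eNOS+/+ and to 7315, 9773 and 5858 CPM in eNOS-/-, and the genotypes overlapped. Most of that sum was glycolytic: Gapdh stood at 3139 CPM, Tpi1 at 1151 CPM and Ldha at 955 CPM. Over all replicates the list stood at 9091 CPM in Neurons, 8800 CPM in Neuroglia, 5291 CPM in Rods and 4270 CPM in Cones. Bnip3, a mitophagy gene induced by hypoxia, was at 370 CPM against 32.0 CPM in Rods and 139 CPM in Neuroglia. Vegfa, the main angiogenic ligand, was at 336, 193 and 138 CPM in eNOS+/+ and 216, 243 and 0 CPM in eNOS-/-. Its 235 CPM in Neurons compare with 35.04 CPM in Rods and 2420 CPM in Neuroglia. Immediate early genes, which rise with activity or with dissociation, were low in Neurons (605 CPM) beside Neuroglia (26261 CPM), and Fos stood at 119 and 7487 CPM.

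Endothelial genes were of interest because the cells had passed a CD31 column. Pecam1 itself stood at 573, 772 and 554 CPM in eNOS+/+ and at 727, 644 and 502 CPM in eNOS-/-, and its pooled level in Neurons was 47.3% of that in ECs. The other 10 endothelial genes ranged from 2.39% to 7.65% of their EC level, among them the tight junction gene Cldn5 (56.9 against 1448 CPM) and the cadherin gene Cdh5 (19.6 against 684 CPM). Rods gave a like pattern, with Pecam1 at 43.4% and the other 10 genes at 6.52% to 16.4%. At least 2 endothelial genes were counted in 10.9% of Neurons, 6.70% of Rods and 74.8% of ECs. At 500 UMIs per cell the order of the first 2 turned, with 5.10% of Neurons and 7.84% of Rods. Mural genes gave 99 UMIs in Neurons, of which 32 came from 1 cell of eNOS-/- replicate 3. That cell put Rgs5, a pericyte gene, at 4686 CPM in that small sum, and Rgs5 was the 1 gene of 1193 (0.0838%) called higher in eNOS-/- when replicate 2 of eNOS-/- was left out.

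The targeted gene could hardly be seen in Neurons. Nos3 gave 2, 0 and 1 UMIs in eNOS+/+ and 1, 0 and 0 in eNOS-/-, and in ECs it stood at 19.4, 36.6 and 23.6 CPM in eNOS+/+ and 21.2, 16.1 and 32.8 CPM in eNOS-/-. The sequences read lie at the 3′ end, and the part of the gene deleted is not given in the sources used here, so these counts do not check the labels. Another chromosome 5 gene, AI506816, did separate the genotypes in ECs, at 122, 140 and 78.8 CPM in eNOS+/+ and 12.5, 21 and 8.19 CPM in eNOS-/-, but in Neurons it gave only 2, 0 and 0 against 2, 8 and 0 UMIs. It was named with earlier results of these data known. The share of all genes that separate in ECs was not counted, so AI506816 does not check the labels either. The neuronal enzyme gene Nos1 gave 1 UMI. The receptor of nitric oxide was better covered. Gucy1a1 and Gucy1b1, the 2 subunit genes of soluble guanylate cyclase, stood at 253 and 210 CPM over all Neurons against 19.8 and 3.05 CPM in Rods. Both were highest in cluster 16 (648 and 412 CPM, against 90.2 and 140 CPM in cluster 7). Gucy1a1 was at 197, 193 and 119 CPM in eNOS+/+ and at 239, 276 and 669 CPM in eNOS-/-, which do not overlap, as in 5.5% of all genes tested in this direction, with a log2 fold change of 0.83 (SE 0.59) that did not pass the test given next (adjusted p = 1.00).

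The genotypes were compared in the 6 sums of Neurons with edgeR's quasi-likelihood test, over 982 genes that passed the filter on low counts, with Benjamini-Hochberg adjustment. No gene was called higher (0.0%) or lower (0.0%) in eNOS-/- at an adjusted p under 0.05. Unadjusted, 41 genes (4.18%) had a p under 0.05, and DESeq2 called none and had 12 such genes. Without the filter 1 of 15951 genes was called lower (0.00627%), and in cells with at least 500 UMIs 1 of 712 (0.14%). In 54 genes (5.5%) all 3 eNOS-/- sums lay above all 3 eNOS+/+ sums and in 52 (5.3%) below. Of the bipolar list 17 of 21 genes passed the filter, of the amacrine list 2, of the horizontal list 3 and of the ganglion list none, so the comparison is one of bipolar genes.

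The 5 genes of smallest p in each direction are given as values, since none passed. Bc1, a non-coding RNA of dendrites (chr7:144914470-144914637), stood at 908, 772 and 1583 CPM in eNOS+/+ and at 170, 417 and 502 CPM in eNOS-/-. The sums do not overlap, and the log2 fold change was -1.83 (SE 0.49, adjusted p = 0.251). In cluster 7 alone Bc1 passed (log2 fold change -2.08, edgeR adjusted p = 0.0425), and it was the 1 gene of 565 tested there (0.177%) that did. That setting was chosen after seeing the data, and its sums of eNOS+/+ replicate 2 and eNOS-/- replicate 3 rest on 5 and 7 cells. Ptms, a prothymosin relative, was at 1738, 1352 and 1128 CPM against 466, 403 and 502 CPM, again without overlap (-1.68, SE 0.47, adjusted p = 0.251). Unc119, a lipid-binding trafficking protein of photoreceptors, was at 316, 386 and 336 CPM against 90.9, 71.8 and 0 CPM, and its level in Rods was 628 CPM. Sox4, a transcription factor of immature neurons, was at 553, 1545 and 277 CPM against 182, 157 and 167 CPM, and Trnp1 at 632, 193 and 692 CPM against 363, 157 and 0 CPM. On the other side Hnrnph1, a splicing factor, was at 237, 0 and 198 CPM in eNOS+/+ and 636, 622 and 502 CPM in eNOS-/- (log2 fold change 1.60, SE 0.45, adjusted p = 0.251). Arid4a, Maged1, Cd47 and Pebp1 had log2 fold changes of 1.88, 1.51, 1.30 and 1.14, each with an adjusted p of 1.00.

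**Figure D5:**
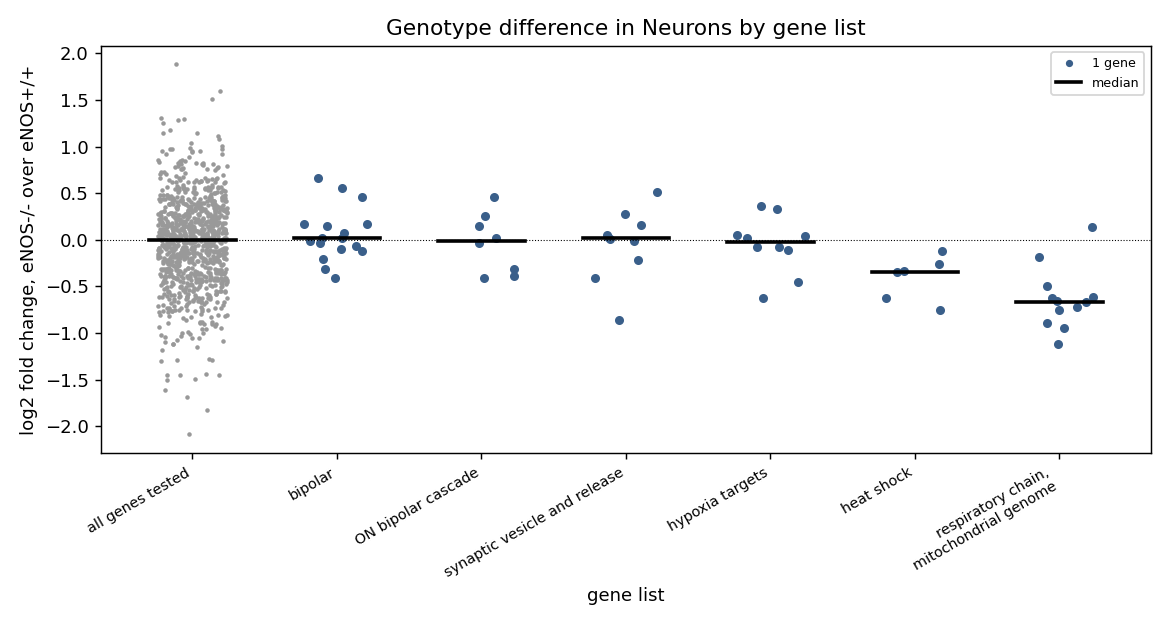
Points are genes that passed the filter, with the log2 fold change of eNOS-/- over eNOS+/+ in Neurons on the vertical axis, and bars are medians of all 982 genes and of 6 lists. The bipolar, ON cascade, synaptic and hypoxia lists centre near 0, and 11 of 12 mitochondrial genes lie below it (median -0.66).

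The bipolar, ON cascade, release and hypoxia lists were centred near 0, and the medians of the short receptor lists shifted with the 2 small sums. The 17 bipolar genes had a median log2 fold change of 0.02, with 9 above and 8 below 0, against 0.00016 for all 982 genes. Trpm1 was at 0.45 (SE 0.47) and Pcp2 at -0.21 (SE 0.45). The 8 tested genes of the ON cascade had a median of -0.01, from -0.41 (Gnao1) to 0.45 (Trpm1), the 10 release genes 0.02, the 10 hypoxia genes -0.03, the 4 GABA and glycine receptor genes 0.25, and the 4 glutamate receptor genes -0.26, with 3 of 4 below 0. Without the 2 small sums the median was 0.12 over 5 GABA and glycine receptor genes and -0.03 over 4 glutamate receptor genes, with 2 of 4 below 0. That of the ON cascade was then -0.15 over 9 genes. No gene of these lists was called. Among the release genes the vesicle GTPase gene Rab3a had the lowest value (-0.86, SE 0.41). Of the polarity list, which concerns the Par, Crumbs and Scribble complexes that the study examined in ECs, 2 of 20 genes could be tested: Lin7a (0.69, SE 0.48) and Cdc42 (0.08).

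Genes of the mitochondrial genome leaned to lower values in eNOS-/-, without passing. Of 12 tested respiratory chain genes 11 had a negative log2 fold change, against 50% of all genes tested, the median was -0.66 (all genes 0.00016), and none was called. The lowest was mt-Nd4, at 1876, 2318 and 1820 CPM in eNOS+/+ and 1045, 1020 and 167 CPM in eNOS-/- (-1.11, SE 0.46, adjusted p = 1.00). The exception was mt-Nd5, at 1836, 2511 and 2275 CPM against 3430, 2368 and 669 CPM (0.14). The list summed to 22649, 44226 and 33397 CPM in eNOS+/+ and to 23695, 19248 and 20251 CPM in eNOS-/-, which overlap in 1 replicate of each. The same list stood at 12209, 16874 and 16751 CPM in eNOS+/+ ECs and at 10234, 11359 and 9552 CPM in eNOS-/- ECs, without overlap. In Rods it stood at 10903, 27080 and 27098 CPM and at 13602, 8718 and 10440 CPM, which overlap. Neuroglia gave 9943, 29877 and 29166 CPM in eNOS+/+ and 11095 and 8886 CPM in eNOS-/- replicates 1 and 2. Cones gave 19898 and 27374 CPM (eNOS+/+ replicates 1 and 3) and 26589 and 18934 CPM (eNOS-/- replicates 1 and 2). In each of Rods, Neuroglia and Cones, eNOS+/+ replicate 1 lay between eNOS-/- sums. Of the types compared, the list was lower without overlap in ECs only, and the share of all genes that separate in ECs was not counted. In Neurons its median was -0.54 without the 2 small sums, and from -0.84 to -0.54 when 1 replicate was left out. Heat shock genes had a median of -0.34 over 6 tested genes, which was -0.12 over 7 genes without the 2 small sums.

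Whether the genotype difference in Neurons departs from that in Rods was tested with the interaction of genotype and cell type over 12 sums, with the library as a block. No gene of 1518 was called higher (0.0%) or lower (0.0%), and 23 (1.52%) had an unadjusted p under 0.05. The smallest p belonged to the olfactory receptor gene Olfr1109 (difference of log2 fold changes -3.46, SE 0.84, adjusted p = 0.0574), which was called with RLE scaling (1 gene of 1518 called lower, 0.0659%) and without eNOS+/+ replicate 2 (1 of 2573, 0.0389%). It stood at 4028, 193 and 59.4 CPM in the eNOS+/+ Neurons and 363, 141 and 0 CPM in eNOS-/-, and 197 of the 204 UMIs in the highest sum came from 1 cell. Without that cell and the cell rich in hemoglobin the difference was 0.25 (SE 0.88). Against ECs, no gene of 8089 was called higher (0.0%) or lower (0.0%), and 287 (3.55%) had an unadjusted p under 0.05. The smallest p was that of Rybp (adjusted p = 0.610), which gave no UMI in the eNOS+/+ Neurons. With the 2 small sums left out, Isl1 (-3.72, adjusted p = 0.000412) and Snhg11 (2.73, adjusted p = 0.00874) passed against ECs, 1 gene lower and 1 higher of 10176 (0.00983% each). Both genes were rare in ECs: Isl1 was counted in 1.23% of ECs and 54.1% of Neurons, and Snhg11 in 4.34% and 10.9%. The Isl1 levels in Neurons, given above, overlapped between genotypes, so its value does not stand for a lower level in eNOS-/- Neurons. In ECs the whole bipolar list stood at 87.3, 76.2 and 72.2 CPM in eNOS+/+ and at 70.4, 349 and 55.3 CPM in eNOS-/-. The part of that 1 replicate in the Isl1 value was not tested.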

How the data were processed

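The authors deposited UMI counts per gene and cell (20822 genes, 8944 cells), made by Drop-seq and kb-python on GRCm38 and merged, filtered (at least 100 genes, at most 10% mitochondrial reads), integrated and clustered with Seurat (version 3 per the submitters' processing notes), after removal of a contaminant cluster. The metadata give each cell's replicate, cell type, cluster and, as a percent per the labels, its mitochondrial share. The table holds 3031 eNOS+/+ and 5913 eNOS-/- cells, and none falls outside the stated filter.

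Counts were summed per replicate over Neurons and tested with edgeR 4.0.16 (filterByExpr, TMM scaling, quasi-likelihood test, Benjamini-Hochberg limit 0.05), with DESeq2 1.42.0 as an alternative. Single values were compared by exact permutation in scipy 1.17.1. Neurons were sub-clustered with scanpy 1.11.5 (2000 variable genes without mitochondrial genes, 15 components, 15 neighbours, Leiden resolution 0.5). Coordinates of genes come from GENCODE M21, in which 98.3% of the table's genes were found by name. Nothing states that replicates of 1 genotype came from separate litters, so p-values measure the spread between these pools. The counts of replicates differed by more than sampling noise.

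The members, the gene lists and the tests were chosen with earlier results of these data known. Named genes are the 4 markers of the rule, Nos3, Nos1 and AI506816, in the genotype comparison the 5 lowest p-values on either side, the highest members of each list (4 for neuron lists, 3 for others), the 10 genes with the largest ratio to other cell types among those of at least 100 CPM, the 5 leading genes of sub-clusters, and, for either interaction, the 2 lowest p-values on either side. Other genes named in the text are list members or cluster leaders chosen after their values were seen.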

Additional observations from a re-analysis of the deposited data

How the results depend on the processing

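No gene was called between genotypes in Neurons under 14 of 19 alternatives, among them DESeq2, RLE scaling and removal of mitochondrial genes. Without a filter on low counts 1 gene was called (Atp5o.1, of 15951), in cells with at least 500 UMIs 1 (Olfr1109), in cluster 7 alone 1 (Bc1), and with 1 replicate left out 0 to 3, with 3 without eNOS+/+ replicate 3 (Olfr1109, Nefm and Nefl, all lower) and 3 without eNOS-/- replicate 2 (Rgs5 higher, Nefm and Nefl lower). With the replicate block no gene was called either (18 genes at an unadjusted p under 0.05, against 41). Deviations of same-numbered replicates of the genotypes had correlations of 0.0276, -0.00591 and 0.0684, and 0.0684 was the highest of all pairs. The pairs numbered 2 and 3 each include a small sum with large counting noise. These values therefore cannot tell whether replicates were paired, and the main fit used no pairing. The interaction against Rods gave 1 call with RLE scaling (Olfr1109), 0 to 1 with 1 replicate left out (1 without eNOS+/+ replicate 2) and 0 with no replicate block, and that against ECs 0 with each replicate left out and 2 without both small sums, an alternative chosen after seeing the data, as were cluster 7 or 16 alone and leaving out 2 outlying cells. The share of Neurons differed by 1.41 points, by -0.889 of non-EC cells and -16.4 of Neurons and rods, and by -0.993 to 3.37 with 1 replicate left out. UMIs per Neuron differed by 8.33, and by -76.1 to 99.7 with 1 replicate left out. The difference was 182 with means in place of medians and 131 with 1 cell per barcode family. The amacrine share differed by -7.93, by 0.218 over 4 markers, 2.16 over cells with 2 genes of a list and 3.27 without both small sums, and by -13.4 to 0.657 with 1 replicate left out. Trpm1 turned to -0.23 in cluster 16 alone, Pcp2 (-0.21) to 0.19 without eNOS+/+ replicate 1, with a range of -0.40 to 0.19 over left-out replicates, and Olfr1109 against Rods to 0.25 without the 2 cells. Sub-clusters numbered 8 at Leiden resolution 1.0. The causes of these shifts were not tested. Depth limits the comparison to 982 genes, and the sums of 5178 and 5975 UMIs carry no level of a single gene.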

Other observations

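Trpm1 was not confined to Neurons in the table: the cells labelled Optc+ held 548 CPM, above the 166 CPM of Rods. The GABA transporter gene Slc6a11 was higher in Neuroglia (543 CPM) than in Neurons (78.3 CPM).

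Genes linked to sex differed between the pools. Xist, the RNA of the inactive X chromosome, stood at 1165, 1159 and 0 CPM in the eNOS+/+ Neurons and at 2090, 0 and 502 CPM in the eNOS-/- Neurons, and the Y-linked gene Eif2s3y at 59.2, 386 and 79.1 CPM and at 45.4, 146 and 0 CPM. The eNOS+/+ replicate 3 and eNOS-/- replicate 2, which both gave 0 for Xist, are 2 of the 4 larger sums, and sex was not a term in any fit.

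Olfr1109 differed between replicates in several cell types. In ECs it stood at 6541, 15.2 and 18.4 CPM in eNOS+/+ and at 1071, 477 and 18.4 CPM in eNOS-/-, in Rods at 3162, 0 and 95.2 CPM and at 4689, 897 and 0 CPM. Its part in the genotype results was not tested beyond leaving out the 1 Neuron named above.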
